A study of Mus musculus with 100 samples.

Results

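The genes described here are those of mitochondrial protein import whose symbols begin with Tomm or Timm and a number (or Timmdc and a number). They were found by mapping the Ensembl transcripts of 5 deposited tables to protein-coding genes. There were 26 such genes among 32153 genes in all, each represented by the transcript with the highest mean. Nearly all mitochondrial proteins are made in the cytosol and must be imported. The TOM complex of the outer membrane receives them and passes them through a channel. From there the TIM23 complex handles proteins with a cleavable presequence, and the TIM22 complex inserts carrier proteins into the inner membrane with the help of the small TIM chaperones of the intermembrane space. Fat cells depend on imported enzymes for fatty acid oxidation and lipid synthesis, and brown and beige fat for heat production.

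The study profiled mouse fat with and without adipocyte GPS2, which belongs to the NCoR/SMRT corepressor. In each table samples labelled knockout were set against samples labelled wild type. The CD table held intra-abdominal fat at 19 weeks of age on normal chow (3 knockout, 3 wild type). The HFD table held intra-abdominal fat at 11 weeks on high fat diet, with 4 weeks in the table's name (4 knockout, 4 wild type). The Epi table held intra-abdominal fat (3 knockout, 3 wild type) and the Adipo table intra-abdominal adipocytes (2 knockout, 3 wild type), both at 19 weeks of age, with a high fat diet of 12 weeks in the table's name. The BA table held inguinal fat at 8 weeks from the beta-adrenergic stimulation part of the study (4 knockout, 4 wild type). Every sample carries the same strain label, Adipoq-Cre-Gps2flox/flox, and the genotype stands in the titles alone. Adipoq-Cre acts in adipocytes, so the other cells of whole fat keep Gps2 whatever the genotype. No label states that replicates were different mice; a p-value here reflects only how these samples vary, and part of that variation may be technical.

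Gps2 itself did not separate the genotypes. Its normalised reads overlapped between knockout and wild type in all 5 tables, at 811 and 839 in the knockout samples of the Adipo table against 755 to 851 in its wild type samples. Which exons were deleted is not stated in the labels, and a transcript that keeps its other exons checks nothing. Knockout and wild type below are therefore the genotypes of the labels. All 9 adipocyte markers stood at 50 normalised reads or more in every sample. Several samples carried RNA of other tissues. In the CD table knockout 1 and 2 had the epididymal gene Adam7 at 29590 and 28660 normalised reads, against 2.80 in knockout 3 and 0 to 4.91 in wild type. These 2 samples were also far more alike (a chi-square of 6.80 per degree of freedom) than other pairs of one group (188 to 1001), although libraries of 1 replicate lay closer still (1.03 to 1.16). The CD wild type samples were not free of such RNA. Over 9 epididymis and testis markers their summed level ran from 3.71 to 43790 normalised reads, against 26.0 to 155900 in CD knockout. No CD wild type sample had more than 1 of these markers at 50 normalised reads or more. Epi knockout 2 and 3 had Adam7 at 21470 and 5019 normalised reads, and Epi wild type 1 had the sperm protamine genes Prm1 and Prm2 at 10480 and 19220.

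Per length, some of the small subunits and chaperones had the most abundant messages. Levels are given as TPM, an abundance per transcript length scaled to the library, computed from the chosen transcripts and averaged over the samples of a table and then over the tables. Tomm6, a small subunit of the TOM complex, led in every table with a mean level of 328 TPM. Timm8b, a chaperone of the intermembrane space, followed in every table with 221 TPM. Tomm7, another small TOM subunit, and Timm13, the partner chaperone of the Timm8 proteins, had 174 TPM each. These 4 genes made up 46.1 to 57.4% of the summed TPM of the whole group in the 33 samples (median 51.8%). The reads of Tomm6 are uncertain, because all of its exon bases are also annotated to Gm21981 on the same strand.

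The receptors and channels stood lower, as did the other chaperones and the small TOM subunit Tomm5 (53.7 TPM). Timm50, the receptor of the TIM23 complex, had 111 TPM. Tomm22, the central receptor of the TOM complex, had 87.2 TPM, Timm44, which tethers the import motor, 81.9 TPM, and Tomm40, the outer membrane channel, 77.2 TPM. Timm10 and Timm9, which form a chaperone complex for carrier proteins, had 67.3 and 43.7 TPM, and Timm23, the channel subunit of the inner membrane, 33.6 TPM. Timmdc1, an assembly factor of respiratory complex I that shares the family name, had 31.9 TPM. The presequence receptor Tomm20 (20.3 TPM), the carrier translocase Timm22 (21.6 TPM), its subunits Timm29 (28.3 TPM) and Timm10b (24.5 TPM), the receptor Tomm70a (24.2 TPM) and the paired subunits Timm17a (22.7 TPM) and Timm17b (24.2 TPM) had similar levels. Timm21, a TIM23 subunit, had 16.7 TPM. Tomm40l, a relative of the channel, had 20.8 TPM, but 70.1% of its exon bases lie opposite Nr1i3, and no label states if reads were counted by strand. The mean level of 16 of the 26 genes was highest in the inguinal fat of the BA table, where Timm44 stood at 154 TPM against 55.8 to 70.3 TPM in the other tables. Tables were normalised separately and differ in age, depot and treatment, so this order has no test.

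**Figure D1:**
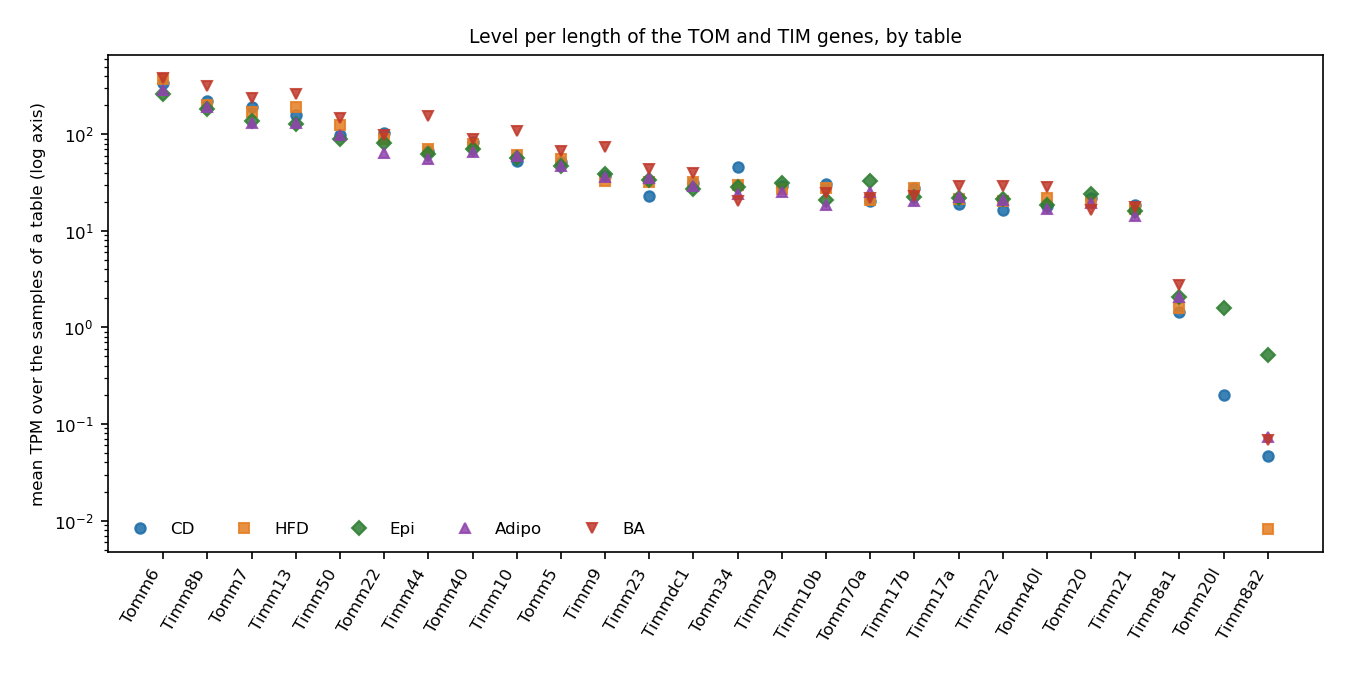
Mean level of each gene in each table, in TPM on a log axis, with genes ordered by their mean over the tables and 1 symbol per table. The 4 leading genes (Tomm6, Timm8b, Tomm7 and Timm13) lie above 100 TPM in every table, most others lie between 10 and 160 TPM, and Timm8a1, Tomm20l and Timm8a2 lie below 3 TPM.

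A few relatives were close to silent. Timm8a1, the mouse counterpart of the human deafness dystonia gene, had 1.98 TPM and passed the filter on low values (a mean of 10 normalised reads) in every table. Tomm20l and Timm8a2, further copies of the receptor and the chaperone, passed it in the Epi table alone. There they did so through wild type 1, which had 101 normalised reads of Tomm20l and 50.7 of Timm8a2, against 0 for both genes in wild type 2 and 3. This is the sample with the protamine messages. In the Epi knockout samples Tomm20l had 0, 14.0 and 0.858 and Timm8a2 had 6.63, 4.11 and 0 normalised reads. Tomm20l was not listed in the HFD, Adipo and BA tables, nor Timm29 in the BA table. The test therefore took in all 26 genes in Epi, 24 each in the CD, HFD and Adipo tables and 23 in BA.

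Promoters were taken for 23 of the 26 genes from RefSeq (build GRCm38.p6), as the 250 bases before and 50 bases after the start site. Timm21, Tomm40l and Tomm7 were not matched. Promoters are shown for some of the genes named in the comparisons below, chosen by hand. Every match of CCGGAAG, the core bound by ETS factors such as GABPA, is in capitals on either strand (CTTCCGG where it lies on the other strand). Not printed are other genes named there, such as Tomm20 and Timm17a, which held no match, and Tomm34, which held 1. Tomm22 lies on chromosome 15 (chr15:79670618-79670917, plus strand), Timm10 on chromosome 2 (chr2:84826771-84827070, plus strand) and Timm8b on chromosome 9 (chr9:50603651-50603950, plus strand). Tomm6 lies on chromosome 17 (chr17:47688337-47688636, minus strand) and Timm22 on chromosome 11 (chr11:76406675-76406974, plus strand).
Tomm22: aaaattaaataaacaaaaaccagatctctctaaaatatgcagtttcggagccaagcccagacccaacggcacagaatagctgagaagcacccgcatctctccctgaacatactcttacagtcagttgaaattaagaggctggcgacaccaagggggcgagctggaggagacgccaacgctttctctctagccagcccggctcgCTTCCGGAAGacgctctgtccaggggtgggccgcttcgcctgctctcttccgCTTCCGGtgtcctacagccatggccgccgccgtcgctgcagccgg
Timm10: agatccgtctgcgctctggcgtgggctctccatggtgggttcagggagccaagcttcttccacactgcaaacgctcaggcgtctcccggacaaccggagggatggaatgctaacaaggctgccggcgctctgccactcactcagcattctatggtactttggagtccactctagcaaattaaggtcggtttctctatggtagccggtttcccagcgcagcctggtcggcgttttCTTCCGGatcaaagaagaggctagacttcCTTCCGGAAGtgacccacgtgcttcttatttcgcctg
Timm8b: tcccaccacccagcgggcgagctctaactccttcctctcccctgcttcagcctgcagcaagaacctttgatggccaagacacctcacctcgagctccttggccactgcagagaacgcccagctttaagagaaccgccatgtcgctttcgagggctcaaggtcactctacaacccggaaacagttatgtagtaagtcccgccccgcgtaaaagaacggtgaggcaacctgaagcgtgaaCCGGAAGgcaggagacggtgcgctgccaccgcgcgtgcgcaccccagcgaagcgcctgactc
Tomm6: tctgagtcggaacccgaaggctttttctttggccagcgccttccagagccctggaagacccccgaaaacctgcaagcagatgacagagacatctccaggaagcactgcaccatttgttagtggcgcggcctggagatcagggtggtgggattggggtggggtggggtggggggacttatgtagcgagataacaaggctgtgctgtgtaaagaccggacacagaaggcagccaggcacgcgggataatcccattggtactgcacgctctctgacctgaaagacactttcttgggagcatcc
Timm22: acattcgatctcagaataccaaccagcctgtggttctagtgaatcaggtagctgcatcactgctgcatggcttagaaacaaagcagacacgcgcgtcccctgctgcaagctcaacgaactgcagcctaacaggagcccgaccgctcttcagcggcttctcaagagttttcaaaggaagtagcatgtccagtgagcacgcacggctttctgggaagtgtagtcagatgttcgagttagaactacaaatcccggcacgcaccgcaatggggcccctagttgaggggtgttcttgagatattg

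The letters CCGGAAG occurred in 10 of the 23 promoters (43.5%), against 8.86% of all 32851 promoters of this length. Tomm22 and Timm10 held 3 matches each. In both, matches on opposite strands overlap in CTTCCGGAAG, whose leftmost base lies at -47 in Tomm22 and at 14 in Timm10 (counted from the start site). Timm8b held 1 match at -12, and none was found in the windows of Tomm6 and Timm22. The other promoters with a match were those of Timmdc1 (4 matches), Timm23, Timm8a2 and Tomm70a (2 each), and Timm10b, Timm29 and Tomm34 (1 each). GCATGCG, a core of the NRF1 motif, occurred in Timm13 alone (4.35%, against 3.58% of all promoters). TATAAA occurred in Timm13 and Tomm5 (8.7%, against 13.6%). The promoters had a median GC content of 58.7%, against 52.7% for all promoters, and the sets were not matched on it. A match is a description of the letters and not evidence of binding.

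On normal chow most or all import genes were higher in knockout fat, depending on the scaling, but no difference passed the test. With limma, 0 of 24 import genes passed an adjusted p of 0.05 (Benjamini-Hochberg over 15467 genes), as did 0% of all genes. At an unadjusted p under 0.05 there were 4 import genes, all higher in knockout (7.23% of all genes were higher and 2.38% lower at that level). With 1 sample left out there were 2 to 6, with 2 without knockout 2, knockout 3 or wild type 1. edgeR called 0 of the 24 and DESeq2 called 3 (Timm8b, Tomm6 and Tomm7), where they called 0 and 1047 of all 18558 genes. All 24 were higher in knockout with the deposited scaling and 21 after TMM scaling, when Timm17b, Tomm34 and Tomm40l were lower. Their median log2 fold change was 0.28, against 0.11 for all genes. TMM scaling moved the median of all genes by -0.114 to -0.005 and that of the import genes to 0.16. Fewer cells of a type and less RNA per cell cannot be told apart in bulk tissue, here and below.

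Tomm6 had 2145, 2254 and 2710.1 normalised reads in CD knockout samples, against 1413, 1240.2 and 1699 in wild type samples. Timm8b had 1006, 995 and 980.2 in knockout, against 634, 612 and 827 in wild type. Tomm22 had 1373, 1379.7 and 1384 in knockout, against 880.3, 883 and 1226 in wild type. In all 3 genes every knockout sample lay above every wild type sample, and for Timm8b and Tomm22 the knockout samples lay almost on top of each other. The log2 fold change was 0.71 ± 0.18 (SE) for Tomm6, 0.54 ± 0.15 for Timm8b and 0.49 ± 0.17 for Tomm22 (limma, adjusted p = 0.504 for each). Tomm7 also lay apart, with 1755, 1783 and 2173 in knockout against 1242, 1088 and 1596 in wild type (0.55 ± 0.19). Groups did not overlap for 8 of the 24 genes, all higher in knockout, where 12.4% of all genes lay apart higher and 4.54% lower. The other 4 were Timm10, Timm22, Timm29 and Tomm40.

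By role, the small TOM subunits had the largest median log2 fold change in CD (0.55, 3 genes), followed by the small TIM chaperones (0.48, 5 genes). Timm10 was among them, with 273, 288 and 452 in knockout against 240.3, 136 and 243 in wild type (0.72 ± 0.32). The TIM22 complex (0.28, 3 genes), the TOM receptors and channel (0.26, 5 genes) and the TIM23 complex (0.20, 6 genes) stood closer to the median of all genes. Knockout 3 was the highest sample for 18 of the 24 genes, and wild type 2 was the lowest for 17. Wild type 2 also had the lowest mean log2 level of adipocyte markers (13.6, against 14.9 to 15.4 in knockout and 15.0 and 15.3 in the other wild type samples), and 2384 normalised reads of the muscle gene Ckm. Epithelial markers stood at 9.08 and 9.04 in knockout 1 and 2 and 9.24 in wild type 2, against 1.31 in knockout 3 and 1.51 to 3.49 in the other wild type samples. Wild type 1 had B cell markers at 8.43 (3.66 and 5.26 in the other wild type samples, 3.89 to 5.07 in knockout), and was the lowest sample for 7 of the 24 genes. Mast cell markers separated the genotypes, at 4.43 to 5.32 in knockout against 6.50 to 6.96 in wild type, and 4 of the 5 tested were lower in knockout at an unadjusted p under 0.05. Skeletal muscle markers also separated them, at 2.97 to 3.31 in knockout against 3.36 to 5.32 in wild type. Of the 4 muscle markers tested 3 were lower in knockout, 2 of them at an unadjusted p under 0.05, and 1 was higher. Of the lists of other cell types, all 8 macrophage, 6 B cell, 6 stromal and 4 mesothelial markers were lower in knockout. None of these had an unadjusted p under 0.05, and their levels overlapped between the genotypes. Going the other way, all 6 endothelial markers were higher in knockout (median log2 fold change 0.31), as were 8 of 9 adipocyte markers (0.44). Again none had an unadjusted p under 0.05, and the levels overlapped. The part of these markers in the result was not tested. Without knockout 1, knockout 2 and wild type 2 together, 23 of 24 genes were higher in knockout and 0 passed. That fit keeps 1 knockout sample, knockout 3, the highest sample for most of these genes, which is assumed to vary like the wild type. Without wild type 2 alone 18 of 24 were higher. With knockout 1 and 2 counted as 1 replicate 24 were higher, with a median of 0.32. In that fit 2 import genes had an unadjusted p under 0.05, against 4 in the main fit, and 0 passed.

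**Figure D2:**
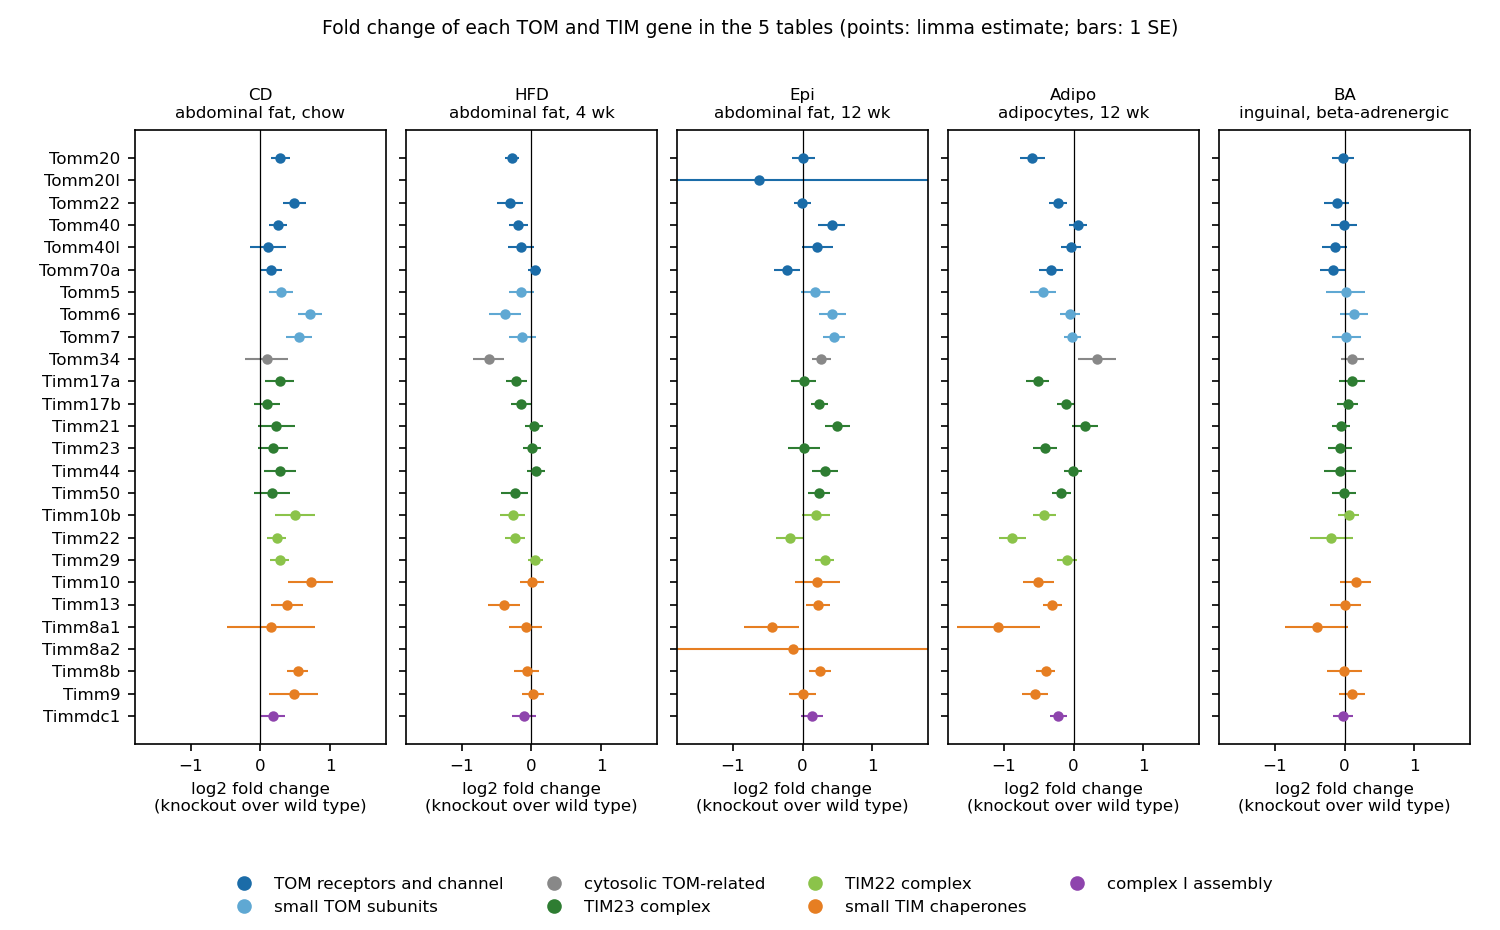
Log2 fold change (knockout over wild type) of each gene in each table, with points for the limma estimate, bars for 1 SE and colours for the role. In CD all 24 points lie above 0 (21 after TMM scaling), in Adipo 21 of 24 lie below 0 (18 after TMM scaling), and no point passed the adjusted test; the bars of Tomm20l and Timm8a2 in Epi run past the axis.

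In the HFD table most import genes, like most genes, were lower in knockout fat, again without a call. Of 24 import genes 0 passed limma in the HFD table, where 3.47% of 13946 genes did. edgeR called 0 of them and DESeq2 called 1 (Tomm34), where they called 457 and 1498 of all 16388 genes. There were 7 higher and 17 lower in knockout (8 and 16 after TMM scaling, when Timm8b was higher), where 63.1% of all genes were lower. Their median log2 fold change was -0.15, against -0.09 for all genes, and it was -0.06 after TMM scaling and -0.03 without wild type 4. At an unadjusted p under 0.05 there were 2, both lower, where 14.6% of all genes were lower and 6.23% higher, so the share of import genes was below that of all genes. Without wild type 1 there were 9, and without knockout 1 there was 1. Tomm20, the receptor that recognises presequences (chromosome 8, 126930667 to 126945844, minus strand), had 577, 689, 711 and 672 normalised reads in knockout, against 739, 777, 804 and 892 in wild type. Tomm34, a cytosolic co-chaperone that holds precursors before import, had 377, 456, 371 and 432 in knockout, against 467, 518, 619 and 1018 in wild type. In both genes every knockout sample lay below every wild type sample. No other import gene lay apart in this direction (10% of all genes did), and none lay apart higher (4.03%).

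The log2 fold change was -0.28 ± 0.10 (SE) for Tomm20 (limma, adjusted p = 0.15) and -0.62 ± 0.22 for Tomm34 (adjusted p = 0.153). Timm13 came next, with 1243, 1833, 1583 and 1449 in knockout against 1352, 1658, 2315 and 2976 in wild type, which overlapped (-0.39 ± 0.23). With 1 sample left out Timm13 ranged from -0.57 to -0.20 and Tomm34 from -0.76 to -0.38. Among genes that were not lower, Timm29 had 678, 652, 669 and 646 in knockout against 529.8, 635, 682 and 710.3 in wild type (0.06 ± 0.10). Timm44 (0.06 ± 0.13) and Tomm70a (0.05 ± 0.09) were as close to 0, and the sign of all 3 changed when 1 sample was left out. The spread in this table was wider among the wild type samples. Wild type 4 was the highest sample for 19 of the 24 genes and wild type 1 the lowest for 17. Of 9 adipocyte markers 4 were higher and 5 lower in knockout, and 2 passed limma, both higher. Of 5 brown and beige fat markers tested 2 were higher and 3 lower, and 1 of either sign passed. In that list Cox8b had 105, 77.2, 142 and 122 in knockout, against 129, 297, 430 and 581 in wild type. Ppargc1a had 113, 79.1, 87.1 and 79.3 in knockout, against 73.5, 52.8, 63.6 and 38.6 in wild type. Wild type 1 had epithelial markers at a mean log2 level of 5.59 (2.37 to 3.45 in the other wild type samples). Knockout 1 had B cell markers at 6.44 (4.08 to 4.34 in the other knockout samples). The part of these markers in the result was not tested. Without wild type 1 and knockout 1 together, 22 of 24 genes were lower and 0 passed. Without wild type 1 alone 23 were lower, and without wild type 4 alone 13 were.

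**Figure D3:**
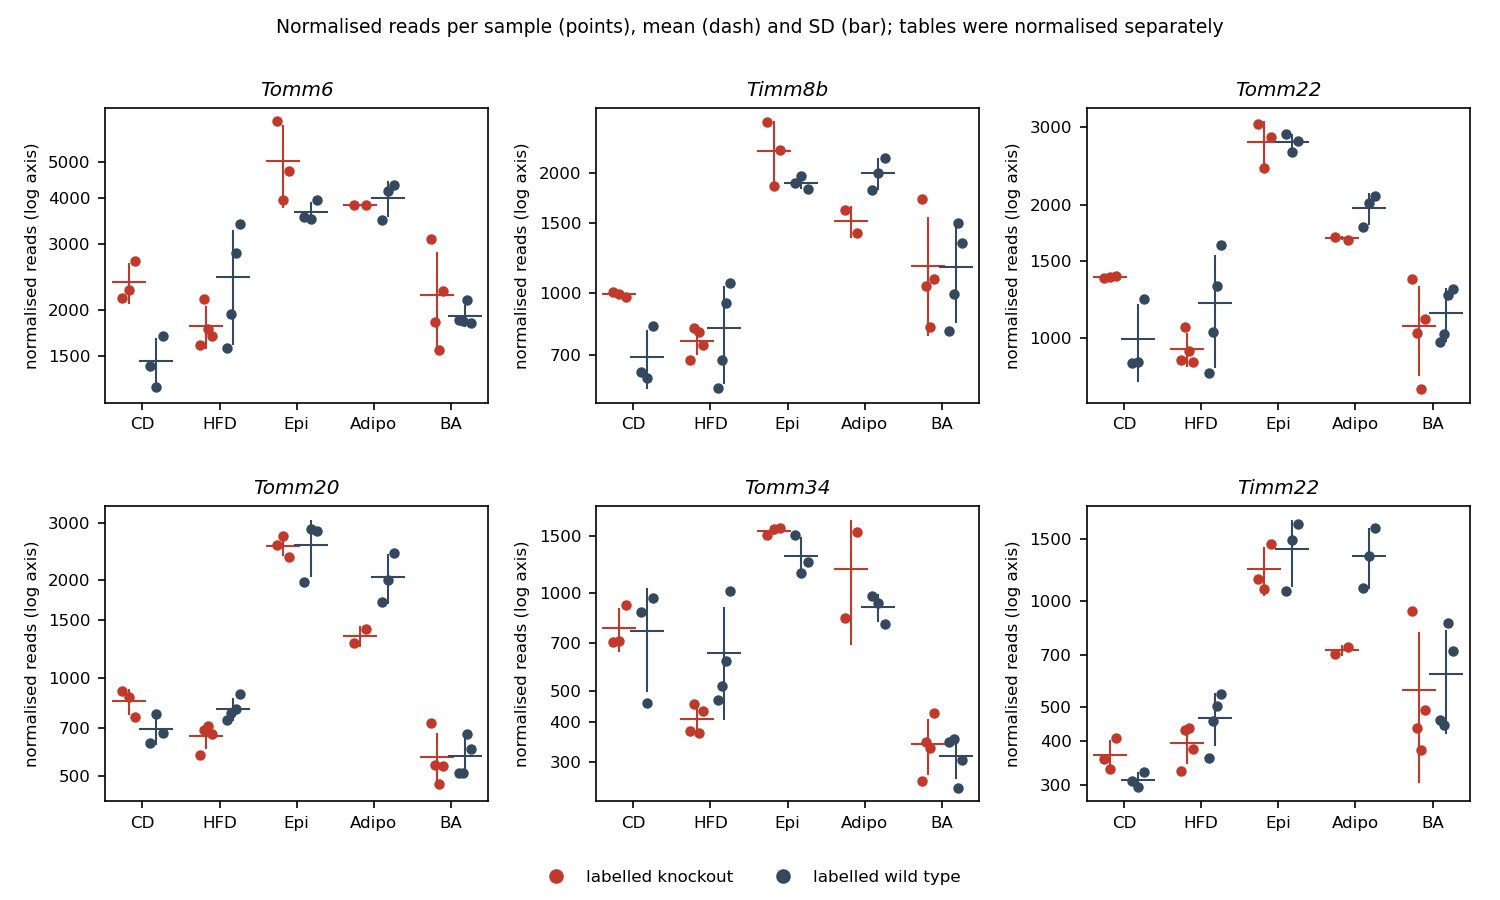
Normalised reads per sample on a log axis for 6 genes in the 5 tables, knockout (red) left of wild type (dark), with a dash for the mean and a bar for the SD. The groups stand apart, higher in knockout, for Tomm6, Timm8b, Tomm22 and Timm22 in CD and for Tomm6 in Epi. They stand apart, lower in knockout, for Tomm20 and Tomm34 in HFD and for Timm22, Tomm20, Timm8b and Tomm22 in Adipo. In BA the groups overlap for all 6. Tables were normalised separately.

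In whole fat of the Epi table most import genes were higher in knockout. Of 26 import genes 0 passed limma in the Epi table, where 0% of 17513 genes did. edgeR and DESeq2 called 0 of 25 each, where they called 0 and 528 of all 17450 genes. There were 20 higher and 6 lower (21 and 5 after TMM scaling, and 20 and 4 without Tomm20l and Timm8a2 under a minimum mean of 50), with a median of 0.20 against -0.03 for all genes. At an unadjusted p under 0.05 there were 2, both higher (3.47% of all genes were higher and 5.74% lower). That number was 0 without knockout 1 or without wild type 3, and 11 without knockout 2. Tomm7 had 4786, 3400.0 and 3771 in knockout, against 2869, 3119 and 2672 in wild type (0.45 ± 0.15). Timm21, which links TIM23 to the respiratory chain in yeast, had 1104, 792 and 1123 in knockout, against 729, 759.5 and 624 in wild type (0.50 ± 0.18). Tomm6 had 6419, 3941 and 4732 in knockout, against 3548, 3513 and 3933 in wild type (0.43 ± 0.19). In these 3 genes the groups did not overlap, although Tomm6 in knockout 2 lay only just above the highest wild type sample. With 1 sample left out Tomm6 ranged from 0.24 to 0.59. The adjusted p by limma was 0.48 for Tomm7, 0.492 for Timm21 and 0.554 for Tomm6. Tomm40 and Timm17b lay apart as well, which made 5 of 26, all higher, against 7.29% of all genes (9.16% lay apart lower).

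The Epi genes lower in knockout were Timm8a1 (-0.44 ± 0.40), Tomm70a (-0.23 ± 0.18) and Timm22 (-0.18 ± 0.20), with Tomm22 next to 0 (above it after TMM scaling) and the near-silent copies Tomm20l and Timm8a2. Timm22 had 1156, 1079 and 1447 in knockout against 1062, 1483 and 1649 in wild type, so its groups overlapped. The knockout samples stood far apart from each other. Knockout 1 was the highest sample for 16 of the 26 genes and knockout 2 the lowest for 10. In Tomm40 they had 3846, 2268 and 2760 normalised reads, against 2076, 2229 and 2174 in wild type. Of 9 adipocyte markers 8 were higher in knockout and 1 lower, and 1 of either sign had an unadjusted p under 0.05. Among them Adipoq had 272400, 139700 and 184900 normalised reads in knockout, against 174900, 174900 and 124900 in wild type. The part of the adipocyte markers in the result was not tested. Of the 9 epididymis and testis markers all were at 0 in knockout 1, and their summed level ran from 0 to 63780 in knockout and from 0 to 38030 in wild type. The fit without knockout 2, knockout 3 and wild type 1, the samples highest in those markers, had 20 of 24 genes higher in knockout, a median of 0.37 and 0 calls. It was chosen after seeing the data and has 1 knockout sample, the highest for most of these genes, which is assumed to vary like the wild type. Without knockout 1 alone 16 genes were higher and 10 lower, with a median of 0.07.

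In isolated adipocytes most import genes were lower in knockout. Of 24 import genes 0 passed limma in the Adipo table, where 0.638% of 14105 genes did. edgeR called 0 of the import genes and DESeq2 called 1 (Timm22), where they called 125 and 1797 of all 14107 genes. There were 3 higher and 21 lower (6 and 18 after TMM scaling, when Timm44, Tomm40l and Tomm7 were also higher), with a median of -0.26 against -0.04 for all genes. At an unadjusted p under 0.05 there were 7, all lower, where 12.8% of all genes were lower and 11.4% higher. That number was 2 without knockout 2 and 10 without wild type 1. Timm22, the translocase that inserts carriers such as the ADP/ATP exchanger (chromosome 11, 76406952 to 76416292, plus strand), had 704 and 739.7 in knockout, against 1083, 1336 and 1609 in wild type. Tomm20 had 1275 and 1413 in knockout, against 1709, 1996 and 2419 in wild type. Timm17a, a subunit of the TIM23 channel (chromosome 1, 135295213 to 135313778, minus strand), had 2488 and 2307 in knockout, against 2988, 3320.3 and 4050.1 in wild type. In all 3 genes both knockout samples lay below every wild type sample, and wild type 3 was the highest of all.

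The log2 fold change in adipocytes was -0.88 ± 0.19 (SE) for Timm22 (limma, adjusted p = 0.0886), -0.59 ± 0.18 for Tomm20 (adjusted p = 0.132) and -0.52 ± 0.17 for Timm17a (adjusted p = 0.146). Over the alternatives the adjusted p of Timm22 ranged from 0.0032 with DESeq2 to 0.458 by limma without knockout 1. Timm22 also passed limma without wild type 3 (adjusted p = 0.0476, log2 fold change -0.74), where 718 of all 14005 genes passed. Groups did not overlap for 14 of the 24 genes, all lower in knockout, where 27.3% of all genes lay apart lower and 20.8% higher. They included the chaperones Timm8b, Timm9, Timm10 and Timm13, the channel subunit Timm23 and the receptors Tomm22 and Tomm70a. By role, the small TIM chaperones (-0.50, 5 genes) and the TIM22 complex (-0.42, 3 genes) had the lowest medians, and the small TOM subunits (-0.05, 3 genes) stood close to the median of all genes. Tomm6 had 3831 and 3832 in knockout, against 3479, 4174 and 4315 in wild type. There were 3 genes that were not lower, Tomm34 (0.34 ± 0.27), Timm21 (0.17 ± 0.19) and Tomm40 (0.07 ± 0.13). For Tomm34 this rested on knockout 2 (1545.0, against 840.2 in knockout 1 and 805 to 981 in wild type).

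Other cells differed between the adipocyte samples. All 6 endothelial markers were detected at 50 normalised reads or more in every sample, and their summed level ran from 13650 to 33480 in knockout and from 1962 to 3492 in wild type. The 4 mesothelial markers summed to 862 to 1295 in knockout and 110.1 to 537 in wild type. Macrophage markers stood at a mean log2 level of 10.2 and 8.81 in knockout, against 7.64, 7.40 and 10.9 in wild type, where wild type 3 was the highest. None of these 3 lists had a marker at 0. Brown and beige fat markers stood at 5.49 and 6.30 in knockout, against 6.19, 7.19 and 7.59 in wild type, and 5 of the 6 tested were lower in knockout, 2 of them at an unadjusted p under 0.05. In this list Cox8b had 127.8 and 696 normalised reads in knockout, against 834, 1289 and 845 in wild type. The levels of the import genes in those cell types are not known from these samples, and the part of such cells in the result was not tested.

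In inguinal fat of the BA table the import genes lay on both sides of 0. Of 23 genes 0 passed limma in the BA table, where 0.0323% of 12377 genes did. At an unadjusted p under 0.05 there were 0 (5.62% of all genes were higher and 3.42% lower at that level). edgeR and DESeq2 called 0 of the 23, where they called 4 and 274 of all 13937 genes. There were 10 higher and 13 lower (7 and 16 after TMM scaling, when Timm13, Tomm5 and Tomm7 were lower), with a median of -0.01 against 0.01 for all genes. No gene had groups that lay apart, where 3.26% of all genes lay apart higher and 2.23% lower. Timm10 had 865, 491, 391.7 and 528 in knockout, against 434, 415, 537 and 580.5 in wild type (0.16 ± 0.22). Tomm70a had 1133, 853, 812 and 701 in knockout, against 849, 784, 1124 and 1167 in wild type (-0.17 ± 0.18). Knockout 1 was the highest sample for 17 of the 23 genes and knockout 3 the lowest for 18, with the wild type samples between them for most genes. The summed level of the group was 2673 TPM in knockout 1 and 1826 TPM in knockout 3, against 2089 to 2474 TPM in wild type.

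In BA Tomm6 (0.14 ± 0.20), Tomm34 (0.11 ± 0.17), Timm8a1 (-0.40 ± 0.45) and Tomm40l (-0.14 ± 0.18) had the next smallest p in either direction, and their groups overlapped. Brown fat messages varied widely between samples. Of the 7 brown and beige fat markers tested 6 were lower and 1 higher in knockout, with a median log2 fold change of -0.79. Of these, 2 were lower at an unadjusted p under 0.05, and 0 passed limma. Their mean log2 level overlapped, at 9.48 to 11.2 in knockout against 10.1 to 12.7 in wild type. Ucp1, the uncoupling protein of brown and beige fat, had 5064, 5948, 1255 and 7787 normalised reads in knockout, against 1978, 4036, 20680 and 40500 in wild type. The sample lowest in the import genes, knockout 3, was also lowest in Ucp1, and had skeletal muscle markers at a mean log2 level of 7.96 (1.74 to 2.72 in the other knockout samples). Wild type 2 had those markers at 7.61. The part of the brown fat and muscle markers in the result was not tested. Without knockout 3 and wild type 2 together 17 of the 23 genes were higher in knockout, an alternative chosen after seeing the data. Leaving out 1 sample moved that number from 1 of 23 (without knockout 1) to 18 of 23 (without knockout 3).

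**Figure D4:**
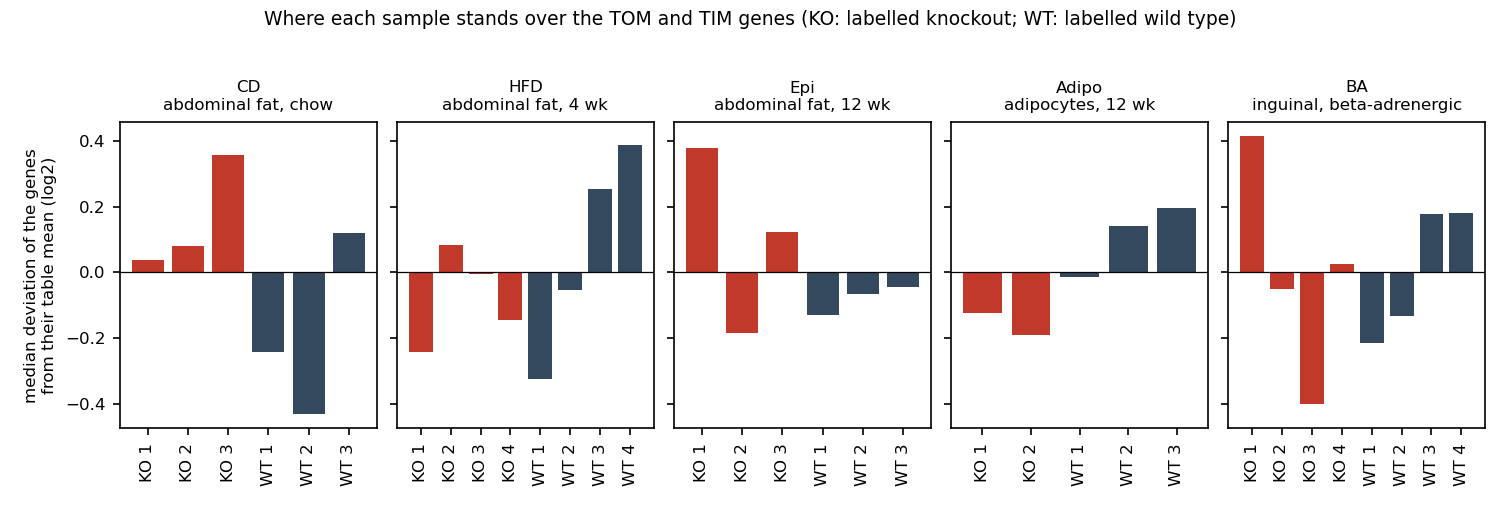
Median over the import genes tested of each sample's deviation from the gene's mean in its table (log2), with knockout bars (red) left of wild type bars (dark) in each table. Knockout 1 (0.413) and knockout 3 (-0.399) span the BA table, wild type 1 and 4 span the HFD table, and both Adipo knockout samples lie below every Adipo wild type sample.

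The effect of genotype was then compared between tables, as a difference of log2 fold changes in 1 limma fit. For HFD minus CD, 0 of 24 genes passed, as did 0% of 13749 genes, and 8 had an unadjusted p under 0.05, all lower, where 14.1% of all genes were lower and 3.27% higher. All 24 differences were below 0 with the deposited scaling and 21 after TMM scaling, when Timm21, Timm23 and Tomm70a were above 0. Their median was -0.45, against -0.18 for all genes. TMM scaling moved the median of all genes by 0.199 to 0.022 and that of the import genes to -0.25, and left 2 at an unadjusted p under 0.05. With 1 sample left out that number was between 3 and 13 (13 without CD wild type 3). Tomm20 differed by -0.57 ± 0.16 (SE, adjusted p = 0.184) and Tomm6 by -1.09 ± 0.32 (adjusted p = 0.184). Without CD knockout 3 Tomm20 passed limma (adjusted p = 0.0409, difference -0.64), where 730 of all 13760 genes passed. The 2 tables differ in age as well as diet, and these cannot be told apart.

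For Adipo minus Epi, 0 of 24 genes passed, where 1.67% of 14033 genes did, and 5 had an unadjusted p under 0.05, all lower, where 4.53% of all genes were lower and 9.05% higher. Epi and Adipo samples of equal number deviated together, although no label states that they are paired. With the replicate number as a block there were 9 at that level and still 0 calls. With 1 sample left out of the fit without the block there were 0 (without Adipo knockout 2) to 16 (without Epi knockout 2). All but 1 of the 24 differences were below 0, with either scaling, and the median was -0.45 against -0.05 for all genes. Timm8b differed by -0.65 ± 0.21 (adjusted p = 0.205) and Tomm7 by -0.47 ± 0.20 (adjusted p = 0.335). The exception was Tomm34 (0.07 ± 0.30), whose sign changed when single samples were left out. For Epi minus CD, 0 of 24 genes passed, as did 0% of 15059 genes, and 1 had an unadjusted p under 0.05, Tomm22, which was lower (-0.49 ± 0.20, adjusted p = 0.558), where 6.39% of all genes were lower and 1.96% higher. There were 8 differences above and 16 below 0 (11 and 13 after TMM scaling), with a median of -0.16 against -0.10 for all genes. Timm22 was next by p (-0.41 ± 0.25), and among the differences above 0 Timm21 (0.28 ± 0.33) and Tomm40 (0.16 ± 0.24) had the smallest p. HFD minus CD and Epi minus CD share the CD samples, and Epi minus CD and Adipo minus Epi share the Epi samples.

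The partners of the import machinery gave no call either. They comprised 25 listed genes of the import motor, the processing peptidases, the SAM complex, oxidative import, membrane insertion and matrix folding, of which 23 were tested in each table. By limma 0 of 23 passed in all 8 comparisons, where 0% to 3.47% of all genes did. In CD 22 of the 23 were higher in knockout (17 after TMM scaling), where 61.7% of all genes were higher. Their median was 0.33, against 0.11 for all genes. At an unadjusted p under 0.05 there were 7 partners, all higher, where 7.23% of all genes were higher and 2.38% lower. They included Hspa9, the motor chaperone (0.80 ± 0.27), the matrix chaperonins Hspd1 (0.64 ± 0.20) and Hspe1 (0.72 ± 0.25), and Mtch1, an outer membrane insertase (0.99 ± 0.33). In HFD there were 10 higher and 13 lower (13 and 10 after TMM scaling), with Hspa9 higher (0.37 ± 0.12) and Mtch1 lower (-0.42 ± 0.15). In Epi there were 20 higher and 3 lower (21 and 2 after TMM scaling), with Samm50, the core of the SAM complex, at 0.65 ± 0.20 and its partner Mtx2 at -0.35 ± 0.15; the 4 SAM genes had 2 higher and 2 lower. In Adipo 18 of 23 were lower with either scaling, and Hspe1 had the smallest adjusted p of any partner (-0.96 ± 0.16, adjusted p = 0.0674 by limma). In BA there were 7 higher and 16 lower (4 and 19 after TMM scaling).

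Other mitochondrial gene groups are given beside the import genes. The median log2 fold change in CD was 0.28 for the import genes, against 0.45 for 37 complex I subunits and 0.29 for 77 mitochondrial ribosomal proteins. In HFD the 3 medians were -0.15, -0.16 and -0.17 in the same order, and in Epi 0.20, 0.32 and 0.20. In Adipo they were -0.26, -0.15 and -0.29, and in BA -0.01, -0.11 and -0.06. No difference between the import genes and these groups was tested. After TMM scaling the medians in CD were 0.16, 0.33 and 0.18, in the same order, and the order of the 3 groups in Adipo was as before.

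**Figure D5:**
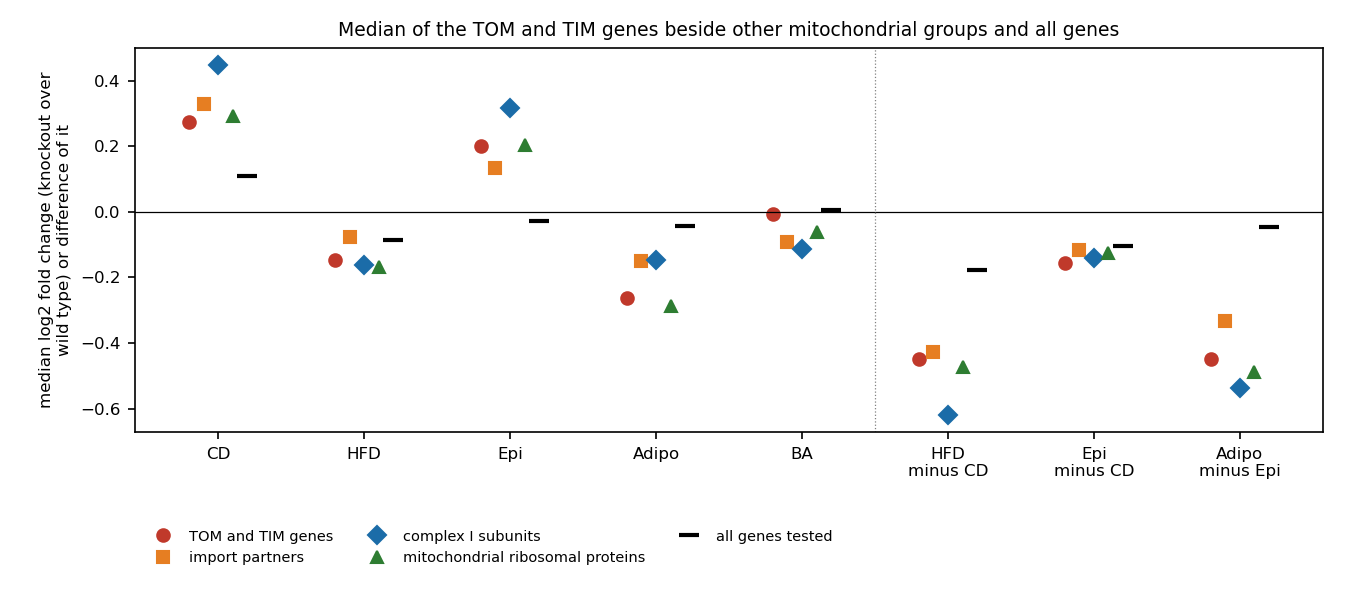
Median log2 fold change (knockout over wild type) in the 5 tables, left of the dotted line, and median difference of it between tables, right of the line, for the import genes, their partners, complex I subunits, mitochondrial ribosomal proteins and all genes tested. The import genes lie above all genes in CD and Epi (0.28 and 0.20) and below them in HFD and Adipo (-0.15 and -0.26), and next to them in BA (-0.01).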

How the data were processed

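Libraries were made with a stranded mRNA kit, per the labels' protocols. Each of 5 deposited tables holds a signal for every Ensembl transcript, whose steps are those of read counts divided by 1 factor per library. Tools named in the submitters' processing notes, without a role, are DESeq 1.8.3, HTSeq 0.5.3, STAR 2.4.0k, bcl2fastq 2.17 and SAMtools, and the build is GRCm38.p4. Of 100 samples 99 were matched to 1 column each; 1 column matched no sample and was not used, and 1 sample labelled knockout of the Adipo table was not analysed here. Libraries of 1 replicate were averaged.

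Transcripts were mapped to genes with GENCODE M21. Whole reads were recovered for 96 libraries (100% of values whole within 0.05 reads), with 29342792 to 63232066 reads per replicate; sums of 3 replicates of HFD and BA lack 1 library. Differences were tested with limma 3.58.1 (trend and robust moderation, R 4.3.3) on log2(value + 1), for genes whose mean reached 10. Genotype was the single covariate, and p-values were adjusted over all genes by Benjamini-Hochberg at 0.05. Fold changes are knockout over wild type on that scale, which understates changes of low genes. edgeR 4.0.16 and DESeq2 1.42.0 on the recovered reads were alternatives, and other alternatives were TMM scaling, pseudocounts of 0.5 and 5, a minimum mean of 50 or none, no moderation, the replicate number as a block, summed transcripts and each replicate left out. Epi and Adipo samples of equal number shared their deviations from the group means (correlations of 0.105 to 0.597 over 5 pairs). The 2 Adipo knockout samples deviate by equal and opposite amounts, so their correlations are not independent. Knockout and wild type numbers gave correlations of either sign (-0.521 to 0.528). No label states that any of these numbers pair samples. Named genes were, per table, those that passed and the 3 higher and 3 lower of smallest p, and, per difference, the 2 of either sign; other genes were named after their values were seen. TPM was computed from chosen transcripts. Fits were also run on simulated data with planted log2 changes of 1. Almost all changes of the import genes were smaller, so those runs do not tell whether such changes would be called. The members, lists and rules were chosen with earlier results of these data known.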

Additional observations from a re-analysis of the deposited data

Results flagged for a closer look

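In the knockout samples of the BA table, Timm8a1 stood at 48.5 normalised reads in knockout 1, far from the other 3 (13.7 to 18.9). In the wild type samples of that table Tomm6 stood at 2120 in wild type 3, against 1842 to 1876 in the others. These were 2 of 24 groups of 4 samples examined for a sample far from the rest, where chance gives about 1 in 20.

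For 4 genes, with the deposited scaling, every knockout sample lay above every wild type sample in the CD table and below every wild type sample in the Adipo table. The log2 fold change of Timm10 was -0.50 in Adipo and 0.72 in CD, that of Timm22 -0.88 and 0.23, that of Timm8b -0.40 and 0.54, and that of Tomm22 -0.22 and 0.49. This held for 4 of 24 import genes, and for 4.68% of all 13453 genes that were tested in both. The difference between these 2 tables was not tested. They differ in diet and in cells against whole tissue, which cannot be told apart.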

How the results depend on the processing

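No import gene was called in any of the 8 comparisons with TMM scaling, a minimum mean of 50, a pseudocount of 5 or summed transcripts, nor in the 5 tables with no filter, a pseudocount of 0.5, no moderation or edgeR, which were run within tables alone. DESeq2 called 3 in CD, 1 in HFD and 1 in Adipo. The replicate block called 1 in Adipo, where it called 1395 of all 14105 genes (Timm22, adjusted p = 0.0306 by limma, log2 fold change -0.74, with wild type 3 unpaired). It called 0 import genes in the other comparisons. Among them was Adipo minus Epi, where samples of equal number deviated together, although no label states that they are paired. With single replicates left out the calls ranged from 0 to 1 in Adipo and in HFD minus CD, and were 0 in the rest. With 1 replicate left out, between 18 and 24 genes were higher in CD knockout samples, 1 to 11 in HFD, 16 to 21 in Epi, 2 to 6 in Adipo and 1 to 18 in BA. The number with a higher effect then ranged from 0 to 3 for HFD minus CD, 3 to 13 for Epi minus CD and 0 to 1 for Adipo minus Epi. It was 3 with TMM scaling for HFD minus CD. In Adipo 6 genes were higher with TMM scaling, 7 with edgeR and 5 with DESeq2. Leaving out wild type 1 and knockout 1 left 2 higher in HFD, and leaving out knockout 3 and wild type 2 left 17 higher in BA (the BA and Epi choices were made after seeing the data).

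Of 627 values of 36 named genes and comparisons under the alternatives, 605 kept direction and side of the threshold, 7 passed the test in addition and 15 changed sign. Calls over all genes ranged from 126 to 1498 in HFD (484 as reported) and from 0 to 1797 in Adipo (90). For Adipo minus Epi they ranged from 33 to 656 (234). DESeq2 gave 1047 in CD, 528 in Epi and 274 in BA, against 0, 0 and 4. Without CD knockout 3 there were 637 calls in CD, 730 in HFD minus CD and 181 in Epi minus CD, against 0 in each as reported. When replicates were left out, the ranges of those that changed sign were -0.03 to 0.11 for Timm29 in HFD, -0.03 to 0.14 for Timm44 in HFD, and -0.0056 to 0.10 for Tomm70a in HFD. They were -0.10 to 0.78 for Tomm34 and -0.01 to 0.35 for Timm21 in Adipo, -0.06 to 0.32 for Timm10, -0.04 to 0.29 for Tomm6, -0.0016 to 0.23 for Tomm34 and -0.24 to 0.01 for Tomm40l in BA, -0.04 to 0.34 for Tomm40 in Epi minus CD and -0.37 to 0.50 for Tomm34 in Adipo minus Epi. Timm29 in HFD was -0.04 without wild type 1 and knockout 1, and Tomm40l in BA 0.0042 without knockout 3 and wild type 2. Other genes that moved by over 1.5 times kept their sign. In HFD the ranges were -0.57 to -0.20 for Timm13 and -0.76 to -0.38 for Tomm34. In Epi they were 0.24 to 0.59 for Tomm6, -0.34 to -0.08 for Tomm70a, -0.63 to -0.20 for Timm8a1 and -0.36 to -0.04 for Timm22. Tomm40 in Adipo had 0.01 to 0.13, and Timm21 in Epi minus CD 0.09 to 0.52. In BA the ranges were -0.30 to -0.07 for Tomm70a and -0.77 to -0.17 for Timm8a1. The cause was not tested. Timm8a1, Timm8a2 and Tomm20l had few reads, and 2 to 4 samples per group limit the precision.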
